A study of Homo sapiens with 16 samples.

Results

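The effect of SETD2 state on transcript levels was compared between 786-O and A498, both established lines of human clear cell renal carcinoma. The 10 libraries were chosen by their labels from the 16 of the series. For 786-O they were 3 SETD2 WT and 3 SETD2 KO libraries, all from cells kept for 72 h in DMSO, the vehicle of a drug that none of these 10 received. For A498 they were 2 libraries labelled SETD2 deficient and 2 labelled SETD2 addback, with the treatment given as None. The labels give the genotype SETD2 null to the KO and deficient libraries and SETD2 WT to the WT and addback libraries. Replicate 3 of WT and of KO belonged to batch 1, replicates 1 and 2 of both to batch 2, and all A498 libraries to batch 3.

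SETD2 encodes the methyltransferase that places the third methyl group on lysine 36 of histone H3 over the bodies of genes being transcribed. The mark is read by proteins that act in DNA methylation, mismatch repair and splicing. SETD2 lies near VHL on the short arm of chromosome 3, a stretch that most clear cell renal carcinomas lose, and its remaining copy is often mutated there. The question was whether KO over WT in 786-O and deficient over addback in A498 moved the same genes. The line, the batch, the vehicle and the kind of control (WT cells in one, addback in the other) cannot be told apart in the difference between lines. Whether a state was 1 clone, several clones or a pool is not given, so SETD2 state cannot be told apart from other differences between the cells compared. The labels do not say whether the replicates came from different cultures, and a p-value here reflects variation from library to library that may be technical.

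Total counts ran from 15199420 to 36037616 per library in 786-O and from 16358468 to 17811303 in A498. SETD2 itself (chromosome 3, 47016428 to 47164113, GRCh38) had 67.2, 69.4 and 63.8 CPM (counts scaled to library size) in the WT libraries and 30.2, 28.2 and 29.5 CPM in the KO libraries. In A498 it had 43.2 and 51.7 CPM in addback and 40.03 and 58.2 CPM in deficient libraries. The 786-O groups were apart and the A498 groups overlapped, so the mRNA level checks the labels in 786-O only. The log2 change was -1.19 ± 0.12 (standard error; adjusted p = 4.53e-06) in 786-O and 0.05 ± 0.15 (adjusted p = 0.838) in A498, by the quasi-likelihood test of edgeR. Replicate 3 stood apart in 786-O: the mean chi-square per gene was 3.85 between WT replicates 1 and 2 and 134 to 139 in pairs with replicate 3, against 1 from counting noise. PAX8, a transcription factor of renal epithelium, was present in all 10 libraries. Of 8 renal carcinoma markers looked at, 2 (CA9 and NDUFA4L2) were under 1 CPM in each library. So were 16 of 20 leukocyte markers. In such bulk samples fewer cells of a type and less RNA per cell cannot be told apart.

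Many genes moved in each line, and the genes moved in both lines went the same way more often than not. Of 17314 genes tested, edgeR called 6760 in 786-O (39.0%), 3323 higher (19.2%) and 3437 lower (19.9%) in KO. It called 5607 in A498 (32.4%), 3154 higher (18.2%) and 2453 lower (14.2%) in deficient cells. A call is a Benjamini-Hochberg adjusted p under 0.05 over all genes tested. Both lines called 2567 genes (14.8%). Of these 1561 (9.02% of genes tested) moved alike, 826 up (4.77%) and 735 down (4.25%). The other 1006 (5.81%) moved oppositely, 412 up in KO and down in deficient cells (2.38%) and 594 down in KO and up in deficient cells (3.43%). The alike genes were 23.1% of the 786-O calls and 27.8% of the A498 calls, and the opposite genes were 14.9% and 17.9%.

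The difference itself, (KO - WT in 786-O) - (deficient - addback in A498), was called for 5437 genes (31.4%), 2408 with a positive value (13.9%) and 3029 with a negative one (17.5%). With upper-quartile scaling the split turned, to 2994 positive and 2319 negative, and the opposite class to 541 and 414. The A498 calls then turned to 2577 higher and 2959 lower, and the alike class to 782 up and 790 down. That scaling moved the median difference of all genes by 0.109 on the log2 scale. All 1006 opposite genes and 344 of the 1561 alike genes had a called difference, the latter 184 of those up and 160 of those down. A further 1955 genes with a called difference were called in 786-O alone and 1841 in A498 alone. For 2238 genes called in 786-O alone and 1199 in A498 alone the difference was not called, so for them no difference between lines was shown.

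Each addback library carried many of the calls. Without addback replicate 1 the alike and opposite counts were 980 and 607, and without replicate 2 they were 948 and 569. Of the 1561 alike genes 594 kept their class with each of the 10 libraries left out in turn, as did 320 of the 1006 opposite genes. The batch term weighed more: without it the counts were 272 and 159. They were 1626 and 1099 with batch 2 as the only 786-O libraries.

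**Figure D1:**
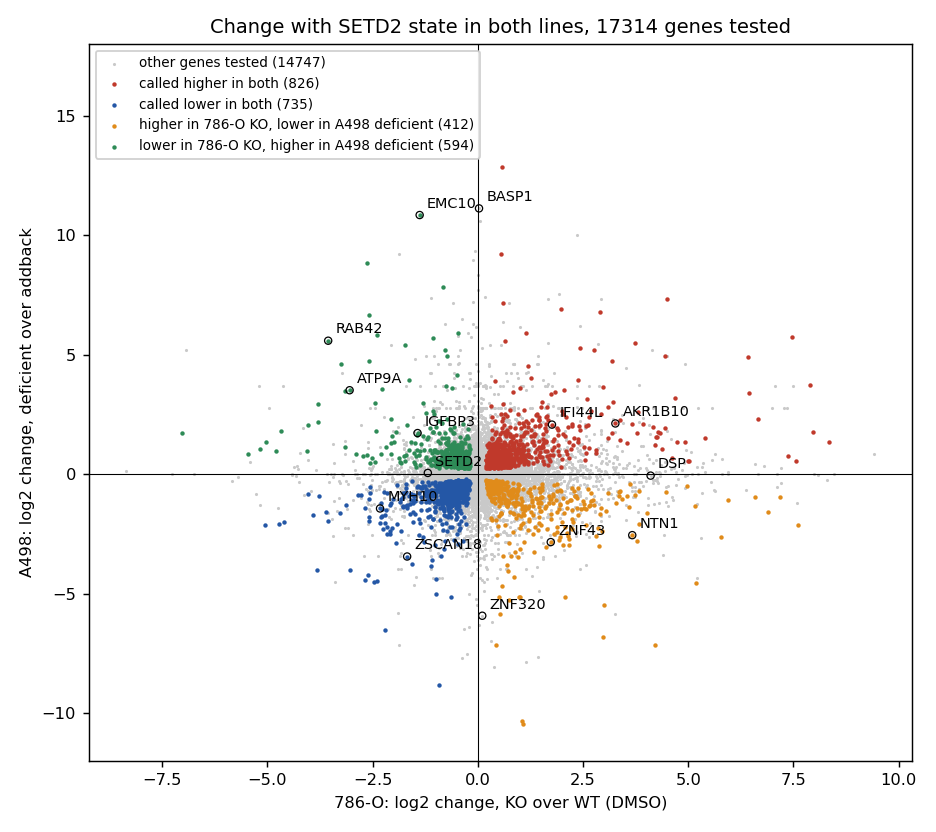
Log2 change of each of 17314 genes in 786-O (KO over WT, x axis) and in A498 (deficient over addback, y axis), coloured by the 4 classes called in both lines. The colours fill all 4 quadrants, with 826 and 735 genes in the alike quadrants and 412 and 594 in the opposite ones; circles mark some of the genes named in the text.

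Across all 17314 genes the changes in the pair of lines were only loosely related (Pearson 0.0717, Spearman 0.107), and 54.2% had the same sign. Among the 2567 genes called in both lines 60.8% had the same sign. Within 786-O the change in batch 1 and the change in batch 2 were closer, with a Pearson correlation of 0.723 and the same sign for 72.9% of genes. Genes are not independent replicates, and these values only describe the libraries. In the alike classes the median log2 change was 0.56 in 786-O and 0.66 in A498 for genes up, and -0.61 and -0.69 for genes down. A change of at least 2-fold in both lines was found for 140 genes up alike, 89 down alike, 117 up in KO and down in deficient cells, and 51 the other way round.

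The genes higher in both SETD2-null states included AKR1B10, TNFAIP6, IFI44L, VGF, RASSF6, LURAP1L and CA2. AKR1B10 (chromosome 7, 134527567 to 134541412) encodes an NADPH-dependent aldo-keto reductase that clears reactive carbonyls and retinal. It had 3.51, 2.98 and 2.48 CPM in WT and 28.6, 31.4 and 27.7 CPM in KO libraries. In A498 it had 536 and 574 CPM in addback and 2370.0 and 2447 CPM in deficient libraries. The groups were apart in both lines, on levels that differed widely between the lines. The rule that picked AKR1B10 required groups apart (in 786-O within each batch), so the separation is no added support. Its log2 change was 3.27 ± 0.11 in 786-O (adjusted p = 2.36e-10, edgeR) and 2.12 ± 0.10 in A498 (adjusted p = 6.82e-09), and the difference of 1.15 ± 0.14 was called too (adjusted p = 4.86e-05).

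TNFAIP6, a secreted protein that binds hyaluronan, had 7.62, 7.44 and 24.2 CPM in WT and 42.9, 49.6 and 57.7 CPM in KO libraries. It had 5.41 and 5.43 CPM in addback and 20.6 and 21.9 CPM in deficient libraries. WT replicate 3 was the highest of its group and still below all KO libraries. It rose by 2.14 ± 0.20 in 786-O (adjusted p = 2.42e-06, edgeR) and 1.97 ± 0.28 in A498 (adjusted p = 1.44e-04), with no called difference (0.17 ± 0.35, adjusted p = 0.757). VGF, the precursor of secreted neuropeptides, rose by 1.79 ± 0.18 and 1.37 ± 0.21, and RASSF6, a RAS-association protein of the Hippo pathway, by 1.80 ± 0.17 and 1.48 ± 0.19. LURAP1L rose less in 786-O than in A498 (1.53 ± 0.16 against 3.00 ± 0.18, adjusted p of the difference = 4.64e-04, edgeR; not called in a fit of all 16 libraries). CA2, a cytosolic carbonic anhydrase, rose by 1.48 ± 0.12 and 2.07 ± 0.15. Its difference of -0.59 ± 0.19 passed narrowly (adjusted p = 0.0265, edgeR) and was not called with upper-quartile scaling, or when any one of KO replicates 1 and 2, WT replicates 1 and 2, either addback library or deficient replicate 1 was left out.

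Interferon-stimulated genes had 21 members higher in both lines, the largest number of the lists, although NRF2 targets had the larger share (42.3% against 39.6%). They encode antiviral proteins and are switched on by signals from interferon receptors that act through the interferon-stimulated response element in their promoters. Of 53 members tested 31 rose (58.5%, against 19.2% of all genes tested) and 0 fell in 786-O. In A498 32 rose (60.4%, against 18.2%) and 3 fell (5.66%, against 14.2%). The members up in both compare with 4.77% of all genes tested. The difference between lines was called with a positive value for 8 of the 53 (against 13.9% of all genes). It was called with a negative value for 12 (against 17.5%), so many members changed by unlike amounts. The median log2 change was 0.40 in 786-O and 0.51 in A498, against 0.01 and 0.04 over all genes. The list's 786-O response is already among the known results of these libraries, so its choice is no independent evidence of direction. The count up in both was 14 to 21 with 1 library left out, 18 with batch 2 alone, 5 without the batch term and 2 in a fit of all 16 libraries. The A498 count of 32 fell to 21 without either addback library.

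The promoters of 4 members are shown: 3 belong to genes that rose in both lines and the fourth, of IFIT1, to a gene that was called in A498 alone. For each gene the first window that held the motif below was taken, so a match was fixed by that choice. Each sequence is the 250 bases before a start of the gene in RefSeq (GRCh38.p14), 5′ to 3′ on the gene's strand: chr1:78620198-78620447 (+) for IFI44L, chr13:42992242-42992491 (-) for EPSTI1, chr14:94110486-94110735 (+) for IFI27 and chr10:89392373-89392622 (+) for IFIT1. The IFI44L window lies inside the span over which that gene was counted (given below), so its RefSeq start is downstream of the counted one. Capitals mark each match, on either strand, of GAAA, any 2 bases and GAAA again, the core of the interferon-stimulated response element; on the other strand it reads TTTC, any 2 bases and TTTC.
IFI44L: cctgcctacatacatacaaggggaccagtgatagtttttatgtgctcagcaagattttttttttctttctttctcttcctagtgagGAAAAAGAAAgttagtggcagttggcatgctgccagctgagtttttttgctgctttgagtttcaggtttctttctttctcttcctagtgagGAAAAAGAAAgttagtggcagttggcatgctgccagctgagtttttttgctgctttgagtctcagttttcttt
EPSTI1: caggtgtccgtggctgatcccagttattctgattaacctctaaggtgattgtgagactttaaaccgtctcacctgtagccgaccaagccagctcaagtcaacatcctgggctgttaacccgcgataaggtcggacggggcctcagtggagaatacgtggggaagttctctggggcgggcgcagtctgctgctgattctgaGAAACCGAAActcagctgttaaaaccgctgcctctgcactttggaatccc
IFI27: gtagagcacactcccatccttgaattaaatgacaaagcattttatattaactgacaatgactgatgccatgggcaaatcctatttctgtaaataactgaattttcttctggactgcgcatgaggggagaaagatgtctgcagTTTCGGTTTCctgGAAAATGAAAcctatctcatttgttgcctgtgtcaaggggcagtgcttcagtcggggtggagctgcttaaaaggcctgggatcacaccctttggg
IFIT1: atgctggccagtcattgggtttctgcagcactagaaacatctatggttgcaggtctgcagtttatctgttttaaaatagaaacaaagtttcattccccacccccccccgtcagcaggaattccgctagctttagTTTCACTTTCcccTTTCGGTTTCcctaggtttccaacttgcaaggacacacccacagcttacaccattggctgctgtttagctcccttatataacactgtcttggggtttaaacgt
Counted from the RefSeq start used, the matches began at -164 and -73 in IFI44L, at -50 in EPSTI1, at -108 and -95 in IFI27, and at -116 and -103 in IFIT1. Windows from 250 bases before to 50 after a start were searched for 17 of the 21 members up in both lines, and 13 of their 25 windows (52.0%) held the motif. For the other members tested, 23 of 32 were matched and 21 of 28 windows (75.0%) held it, against 2.96% of 17066 windows of all genes tested and 3.57% of all 35116 windows. The share was smaller among the members up in both lines than among the rest. A match describes letters and is not a measured site.

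IFI44L, an interferon-induced gene (chromosome 1, 78619902 to 78646145), had 8.87, 7.37 and 12.5 CPM in WT and 25.3, 29.9 and 42.5 CPM in KO libraries. It had 13.3 and 13.4 CPM in addback and 56.4 and 55.7 CPM in deficient libraries. The groups did not overlap in either line, which the rule that picked this gene required (in 786-O within each batch). It rose by 1.76 ± 0.10 (adjusted p = 2.43e-08, edgeR) and 2.07 ± 0.13 (adjusted p = 7.02e-08), and no difference was called (-0.31 ± 0.16, adjusted p = 0.165). EPSTI1 rose by 2.01 ± 0.27 and 1.67 ± 0.33 from levels of 1.62, 1.00 and 0.382 CPM in WT and 1.43 and 1.79 CPM in addback libraries. Its A498 call was lost without the batch term and in a fit of all 16 libraries. OASL, a relative of the oligoadenylate synthetases, rose by 1.37 ± 0.20 and 2.00 ± 0.22, and lost both calls without the batch term. IFI27, a mitochondrial protein induced by interferon, rose less in 786-O (0.99 ± 0.15) than in A498 (2.12 ± 0.22; difference -1.13 ± 0.27, adjusted p = 0.00610, edgeR). That difference was not called without addback replicate 1, without the batch term or in the fit of all 16 libraries, and its 786-O call was lost in the last.

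Other members of the list responded in a single line. IFIT1, which binds viral RNA lacking 2′-O-methylation, had 31.1, 29.4 and 19.4 CPM in WT and 25.5, 25.8 and 24.4 CPM in KO libraries, which overlapped. In A498 it had 12.4 and 10.6 CPM in addback and 30.9 and 35.6 CPM in deficient libraries, which did not. Its log2 change was -0.07 ± 0.12 in 786-O (adjusted p = 0.682, edgeR) and 1.53 ± 0.16 in A498 (adjusted p = 7.87e-06), with a called difference of -1.60 ± 0.19 (adjusted p = 3.95e-05). The neighbouring IFIT3 did likewise (0.04 ± 0.09 and 1.497 ± 0.115, adjusted p of the difference = 6.57e-06, edgeR). IFITM1, a membrane protein that restricts viral entry, went the other way: it rose by 3.31 ± 0.24 in 786-O, against 1.15 ± 0.52 in A498, where all 4 libraries were low (0.159 and 0.512 CPM in addback and 1.00 and 0.511 CPM in deficient) (adjusted p of the difference = 0.0187, edgeR; not called without addback replicate 2 or deficient replicate 2, without the batch term or with all 16 libraries). BST2, the tether of budding virus, was lower in deficient than in addback cells (-1.03 ± 0.14) with 0.11 ± 0.11 in 786-O.

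HELZ2, a coactivator helicase, was the only member of the list called in opposite directions, up by 0.69 in KO and down in deficient cells (-0.53). It lost both calls without the batch term and in the fit of all 16 libraries. Among genes of MHC class I presentation 7 of 21 tested (33.3%, against 4.77% of all genes) were up in both lines, among them the immunoproteasome subunit PSMB8 (0.57 ± 0.10 and 0.84 ± 0.12). That count was 2 without addback replicate 2, 3 without addback replicate 1 or WT replicate 2, and 4 without KO replicate 1 or 2, WT replicate 1 or deficient replicate 1. It was 3 with upper-quartile scaling, 1 without the batch term and 2 in the fit of all 16 libraries.

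**Figure D2:**
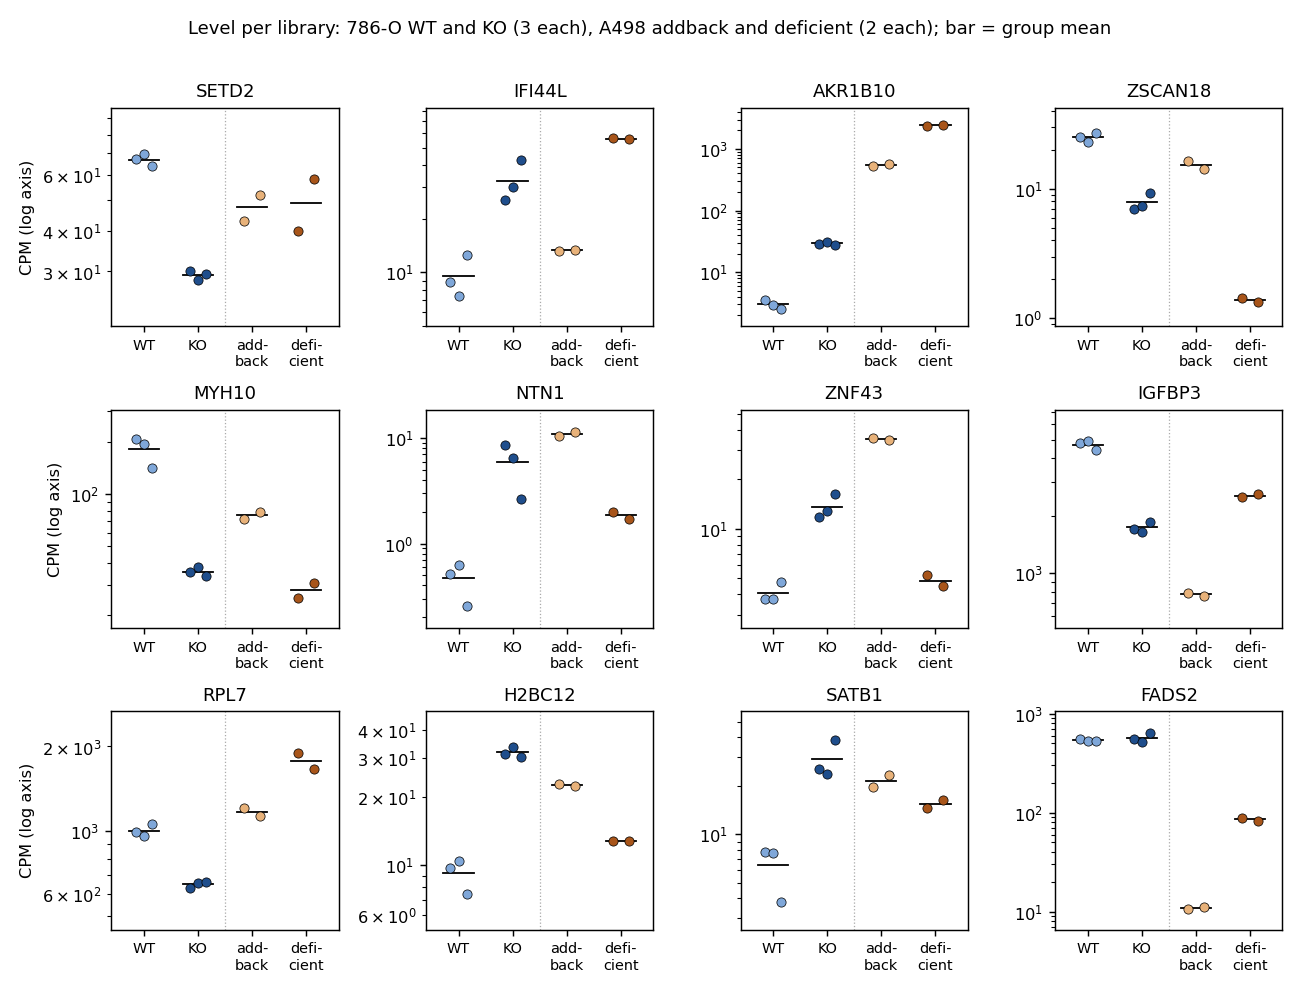
CPM on log axes in each library for 12 genes, with 3 WT and 3 KO libraries of 786-O left of the dotted line and 2 addback and 2 deficient libraries of A498 right of it; bars are group means. IFI44L and AKR1B10 were higher and ZSCAN18 and MYH10 lower in the SETD2-null libraries of both lines, NTN1, ZNF43 and H2BC12 went up and down, IGFBP3 and RPL7 down and up, and SETD2, SATB1 and FADS2 were called in 1 line only.

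Targets of NRF2 had the largest share of members up in both lines among the lists, 11 of 26 tested (42.3%, against 4.77% of all genes). NRF2 (the product of NFE2L2) is the transcription factor that turns on glutathione synthesis, thioredoxin and NADPH-producing enzymes when KEAP1 no longer degrades it. In A498 22 members rose (84.6%, against 18.2% of all genes) and 0 fell. In 786-O 13 of the 26 rose (against 19.2% of all genes) and 5 fell, and the latter share of 19.2% was close to the 19.9% of all genes. The 13 were 8 without KO or WT replicate 2, and the 5 were 2 without any one of KO and WT replicates 1 and 2 and the addback libraries. The medians were 0.27 in 786-O and 0.69 in A498. The difference was called for 16 of the 26 (against 31.4% of all genes), 15 of them higher in A498 (against 17.5%). The count up in both was 4 without the batch term and 3 in the fit of all 16 libraries. Without 1 library the count up in both was 6 to 11: 6 without addback replicate 1, and 7 without addback replicate 2, KO replicate 2 or WT replicate 2.

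SLC7A11, which imports cystine for glutathione, had 32.5, 29.8 and 45.4 CPM in WT and 70.7, 66.9 and 66.1 CPM in KO libraries. It had 148 and 153 CPM in addback and 311 and 317 CPM in deficient libraries. It rose by nearly the same amount in both lines, 0.95 ± 0.11 (adjusted p = 1.26e-05, edgeR) and 1.06 ± 0.13 (adjusted p = 3.18e-05), with a difference of -0.11 ± 0.16 (adjusted p = 0.652). GCLC, the catalytic subunit of glutathione synthesis, rose by 0.59 ± 0.08 and 0.64 ± 0.10, the latter not called in a fit of all 16 libraries. NQO1, a quinone reductase, went oppositely: it fell in KO (-0.41 ± 0.07) and rose in deficient cells (0.53 ± 0.08; difference -0.94 ± 0.11, adjusted p = 2.89e-05, edgeR).

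The opposite NRF2 targets numbered 4 in all, 1 without either addback library and 2 without any one of KO and WT replicates 1 and 2. The 4 were 15.4% of the members (against 3.43% of all genes), all down in KO and up in deficient cells. They were 1 with upper-quartile scaling, without the batch term and in the fit of all 16 libraries. HMOX1, heme oxygenase, rose in A498 only (1.58 ± 0.09, against 0.14 ± 0.08 in 786-O; adjusted p of the difference = 1.52e-06, edgeR, not called without the batch term). AKR1C2, an aldo-keto reductase of steroids, had 51.7 and 55.8 CPM in addback and 922 and 906 CPM in deficient libraries, a rise of 4.09 ± 0.13. In 786-O all 6 libraries held 0.186 to 1.27 CPM, so its change there (0.31 ± 0.31) rested on few counts. AKR1C1, AKR1C2 and AKR1C3 are near-identical copies whose unique reads are uncertain.

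Renal lineage genes were up in A498 more than in 786-O. Of 27 tested 16 rose (59.3%, against 18.2% of all genes) and 0 fell in A498. In 786-O 11 rose (40.7%, against 19.2%) and 7 fell (25.9%, against 19.9%). Up in both were 8 (29.6%, against 4.77%), 3 without the batch term and 4 in the fit of all 16 libraries. The difference was called for 16 of the 27 (against 31.4% of all genes), 12 of them higher in A498 (against 17.5%). PAX8 was opposite, lower in KO (339, 359.8 and 205 CPM in WT against 271, 271 and 176 CPM in KO libraries) and higher in deficient libraries (188 and 209.9 CPM against 115 and 127 CPM in addback). Its replicate 3 was the lowest library of each 786-O group. The log2 changes were -0.32 ± 0.08 and 0.71 ± 0.10 (adjusted p of the difference = 3.59e-05, edgeR). None of these was called without the batch term, and the 786-O change was not called with all 16 libraries.

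The genes lower in both SETD2-null states included MYH10, AIF1L, CHN1 and ZSCAN18. MYH10 (chromosome 17, 8474207 to 8631376), the heavy chain of non-muscle myosin IIB, had 207, 194 and 142 CPM in WT and 35.5, 38.1 and 33.8 CPM in KO libraries. It had 71.9 and 79.2 CPM in addback and 25.04 and 30.7 CPM in deficient libraries. Neither pair of groups overlapped, which the rule that picked MYH10 required (in 786-O within each batch). WT replicate 3 was the lowest WT library. MYH10 fell in both lines, with log2 changes of -2.33 ± 0.10 (adjusted p = 1.78e-09, edgeR) and -1.44 ± 0.13 (adjusted p = 2.63e-06). Its difference of -0.89 ± 0.16 (adjusted p = 9.87e-04) was not called without the batch term. AIF1L, which binds and bundles actin, changed by -2.20 ± 0.14 and -1.70 ± 0.26, and CHN1, a chimaerin that turns RAC off, by -1.36 ± 0.14 and -1.51 ± 0.17. The difference between lines was -0.50 ± 0.31 for AIF1L (adjusted p = 0.252, edgeR) and 0.15 ± 0.22 for CHN1 (adjusted p = 0.662), neither of them called.

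ZSCAN18, a zinc finger protein with a SCAN domain, had 24.99, 23.2 and 27.2 CPM in WT and 7.03, 7.40 and 9.26 CPM in KO libraries. It had 16.4 and 14.2 CPM in addback and 1.44 and 1.34 CPM in deficient libraries. It fell further in A498 (-3.45 ± 0.18) than in 786-O (-1.68 ± 0.10; difference 1.77 ± 0.22, adjusted p = 5.37e-05, edgeR). PIGM, a mannosyltransferase that builds GPI anchors, changed by -1.78 ± 0.13 and -1.37 ± 0.16, and C15orf48, a subunit of the respiratory chain induced in inflammation, by -1.37 ± 0.14 and -2.05 ± 0.21. ICAM1, the integrin ligand, fell in both lines (-1.41 ± 0.08 and -0.48 ± 0.10), although the A498 call was lost without the batch term and in the fit of all 16 libraries.

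Targets of p53, the stress-activated transcription factor, were lower more often in 786-O. Of 27 tested 13 fell (48.1%, against 19.9% of all genes) and 3 rose (11.1%, against 19.2%) in KO. In deficient cells 7 fell (25.9%, against 14.2%) and 5 rose (18.5%, against 18.2%), and 5 were lower in both lines (18.5%, against 4.25%). The difference was called with a negative value for 10 (against 17.5% of all genes) and a positive one for 2 (against 13.9%). The count lower in both was 1 without the batch term and 0 in the fit of all 16 libraries. The A498 count of 7 was 2 without either addback library or deficient replicate 2, 3 without KO or WT replicate 1, and 4 without KO or WT replicate 2. The count lower in both was 2 to 5 with 1 library left out: 2 without KO or WT replicate 1, either addback library or deficient replicate 2. The 5 that rose in A498 were 3 without addback replicate 1. With the genes of chromosomes 1, 10 and 20 left out, the 786-O median of these targets went from -0.21 to -0.11. Of the 21 that remained 4 were lower in both lines. TIGAR, a phosphatase that lowers glycolytic flux, changed by -0.90 ± 0.16 in 786-O, not called with all 16 libraries, and -1.93 ± 0.20 in A498.

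Of 26 genes that write, erase or read methylation of lysine 36 of histone H3, 2 were higher and 2 lower in both lines (7.69% each, against 4.77% and 4.25% of all genes). In 786-O 2 were higher (7.69%, against 19.2%) and 7 lower (26.9%, against 19.9%), SETD2 among the latter. In A498 4 were higher (15.4%, against 18.2%) and 7 lower (26.9%, against 14.2%). The 4 were 1 without addback replicate 1 and 2 without any one of KO and WT replicates 1 and 2, addback replicate 2 and deficient replicate 2. The 7 lower in A498 were 3 without addback replicate 1 or deficient replicate 1 and 4 without addback replicate 2. SMYD2 was the opposite member, but its A498 call was lost in 13 of 20 alternatives, among them limma voom and upper-quartile scaling. DNMT3B, the DNA methyltransferase recruited by the mark, rose by 0.59 ± 0.08 and 0.77 ± 0.10, and neither rise was called with all 16 libraries. SETMAR, a methyltransferase fused to a transposase, changed by -0.58 ± 0.12 and -0.55 ± 0.15. The A498 call of SETMAR was lost with limma voom, without the batch term, without addback replicate 1 or deficient replicate 1 and, as in 786-O, with all 16 libraries. With 1 library left out the numbers alike were 0 to 4 lower and 1 to 2 higher. With the genes of chromosomes 1, 10 and 20 left out, 21 members remained. Of these 2 were lower in both lines and 2 were called in 786-O only. The 786-O median went from -0.06 to 0.02.

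**Figure D3:**
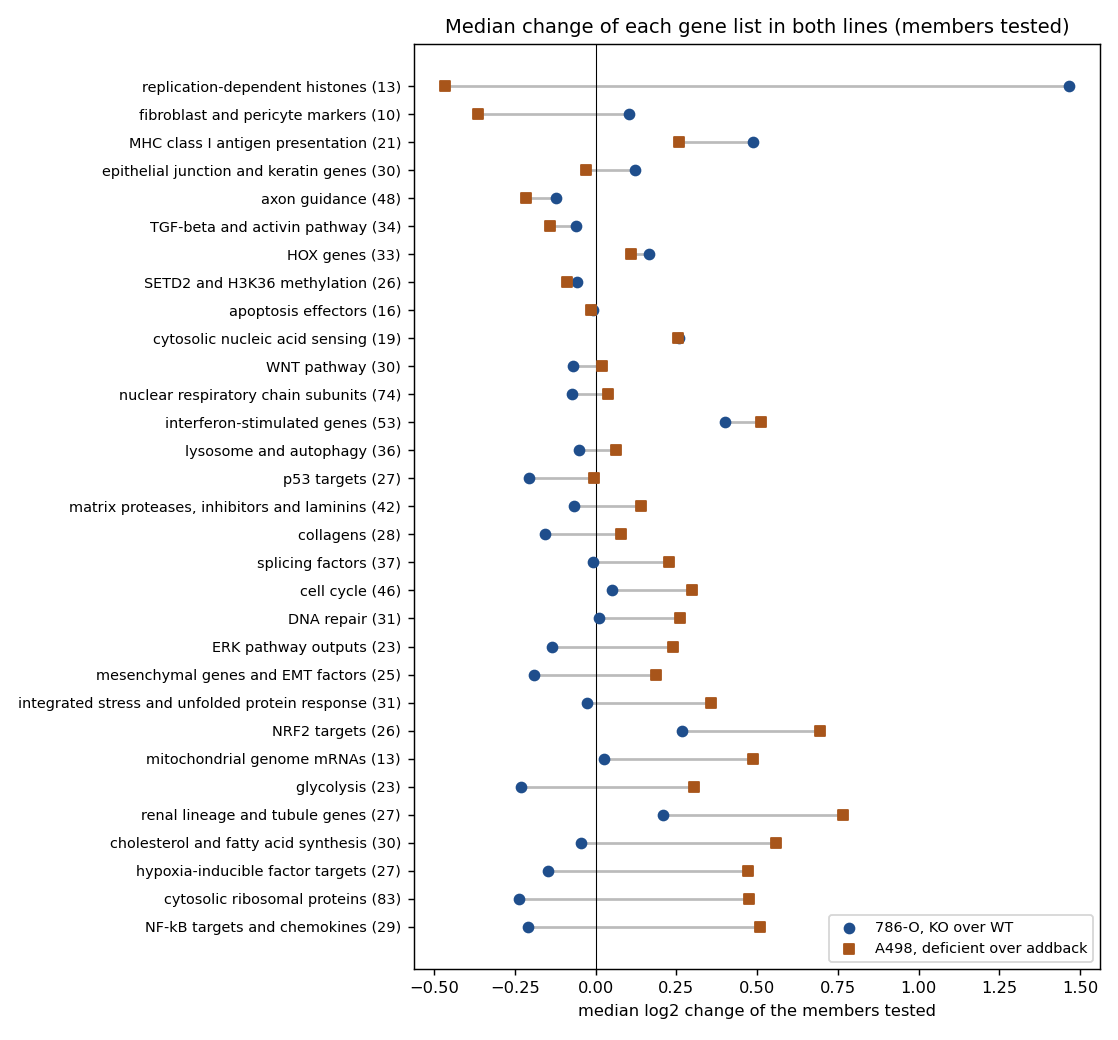
Median log2 change of the members tested in each gene list with at least 10 of them (number in brackets), in 786-O (circles, KO over WT) and in A498 (squares, deficient over addback). Interferon-stimulated genes lay at 0.40 and 0.51, cytosolic ribosomal proteins at -0.24 and 0.48, and replication-dependent histones at 1.47 and -0.47, against 0.01 and 0.04 over all genes tested.

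Genes up in KO and down in deficient cells included NTN1, EPHB6, RHOU, ITGAX, CGN, ZNF43, ZNF737 and H2BC12. NTN1 (chromosome 17, 9021510 to 9244000) encodes netrin-1, a secreted guidance and survival factor of laminin kin. It had 0.518, 0.632 and 0.255 CPM in WT and 8.54, 6.53 and 2.67 CPM in KO libraries. It had 10.5 and 11.5 CPM in addback and 2.01 and 1.73 CPM in deficient libraries. WT was the lowest group of the 4 and addback the highest, with the SETD2-null groups between them. The log2 change was 3.67 ± 0.22 in 786-O (adjusted p = 2.74e-08, edgeR) and -2.56 ± 0.22 in A498 (adjusted p = 1.63e-06), and the difference was 6.22 ± 0.31 (adjusted p = 8.75e-09).

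EPHB6, an ephrin receptor without kinase activity, rose by 3.44 ± 0.24 in KO and changed by -1.06 ± 0.16 in deficient cells. UNC5A, a netrin receptor, rose in 786-O only (2.70 ± 0.17, against 0.03 ± 0.18; adjusted p of the difference = 4.75e-06, edgeR). RHOU, an atypical CDC42-like GTPase, had 2.06 ± 0.16 and -2.23 ± 0.20, and CGN, cingulin of tight junctions, 1.30 ± 0.29 and -2.52 ± 0.30. ITGAX, an integrin alpha chain best known from leukocytes, had 2.24 ± 0.15 and -1.51 ± 0.17, while the summed level of the 20 leukocyte markers was 1.08 to 3.95 CPM over the 10 libraries. Of the 48 axon guidance genes tested 5 were up in KO and down in deficient cells (10.4%, against 2.38% of all genes) and 4 the other way round (8.33%, against 3.43%). In both lines 1 was up (2.08%, against 4.77%) and 2 were down (4.17%, against 4.25%). The 4 were 2 without addback replicate 1. The 2 down in both were 1 without WT replicate 1 or 2 or addback replicate 2, 4 without KO replicate 3 and 5 without WT replicate 3, and the 1 up was 2 without either of the last pair.

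ZNF43 (chromosome 19, 21804946 to 21852125) is a KRAB zinc finger gene, of the family that silences transposable elements. It had 3.75, 3.72 and 4.77 CPM in WT and 11.8, 12.8 and 16.2 CPM in KO libraries. It had 35.3 and 34.4 CPM in addback and 5.21 and 4.48 CPM in deficient libraries. The addback libraries were the highest of the 10, and WT and deficient libraries were close in level. The changes were 1.73 ± 0.11 and -2.85 ± 0.14, with a difference of 4.58 ± 0.18 (adjusted p = 8.82e-10, edgeR). ZNF737 did likewise (1.61 ± 0.11 and -3.07 ± 0.20). Both belong to a stretch of chromosome 19 from 19668796 to 24129968 in band 19p12 that was chosen after its values were seen. There 19 of 28 ZNF genes tested were up in KO and down in deficient cells (against 2.38% of all genes tested) and 0 were alike (against 9.02%). Their medians were 0.62 and -2.96, whereas the other 179 ZNF genes of the chromosome had medians of 0.00 and -0.55. These genes are close copies of each other, so reads placed uniquely can be uncertain among them. ZNF320, elsewhere on the chromosome, was called in A498 only (-5.93 ± 0.31, from 8.91 and 11.01 CPM in addback to 0.126 and 0.192 CPM in deficient libraries; 0.10 ± 0.10 in 786-O).

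Replication-dependent histone genes, whose mRNAs normally end in a stem-loop and lack a poly(A) tail, were raised mainly in 786-O. Of 13 tested, 10 rose (76.9%, against 19.2% of all genes) and 0 fell in KO. In deficient cells 1 rose (7.69%, against 18.2%) and 1 fell (7.69%, against 14.2%). These were 0 to 1 and 1 to 2 with 1 library left out. The difference was called for 9, all with a higher value in 786-O. Over all genes tested the difference was called for 31.4%, with a higher value in 786-O for 13.9%. The medians of the histone genes were 1.47 and -0.47. H2BC12 (chromosome 6, 27146361 to 27146855) was the gene called in both, at 9.72, 10.5 and 7.45 CPM in WT and 31.2, 33.5 and 30.2 CPM in KO libraries. In A498 it had 23.02 and 22.4 CPM in addback and 12.8 and 12.8 CPM in deficient libraries. Its changes were 1.78 ± 0.10 (adjusted p = 1.89e-08, edgeR) and -0.83 ± 0.13 (adjusted p = 2.41e-04), with a difference of 2.61 ± 0.16 (adjusted p = 8.83e-08). The libraries were made from RNA selected for poly(A), so the counts cover tailed histone transcripts. Of 46 cell cycle genes 11 rose (23.9%) and 8 fell (17.4%) in KO, shares near the 19.2% and 19.9% of all genes. The 11 were 7 without WT or KO replicate 3, and the 8 were 5 without KO replicate 1 and up to 12 with another library left out. In deficient cells 16 rose (34.8%, against 18.2%) and 2 fell (4.35%, against 14.2%). The 16 were 3 and 5 without addback replicates 1 and 2, 9 without deficient replicate 2 and 28 without KO replicate 3.

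Genes down in KO and up in deficient cells were the larger opposite class (594 against 412), though the smaller with upper-quartile scaling (414 against 541) and 78 against 81 without the batch term. They included IGFBP3, INHBB, STC2, NNMT, UCP2, ATF4, ATP9A, RAB42 and EMC10. IGFBP3 (chromosome 7, 45912245 to 45921874), the main carrier of insulin-like growth factors, had 4827, 4890.0 and 4418 CPM in WT and 1716, 1652 and 1865 CPM in KO libraries. It had 794 and 759 CPM in addback and 2516 and 2584 CPM in deficient libraries. The WT libraries were the highest and the addback libraries the lowest of the 10. The changes were -1.43 ± 0.08 (adjusted p = 8.54e-09, edgeR) and 1.72 ± 0.09 (adjusted p = 2.35e-08), and the difference was -3.15 ± 0.12 (adjusted p = 8.82e-10).

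INHBB, the beta-B subunit of activin, fell in KO (-1.13 ± 0.14) and rose in deficient cells (1.94 ± 0.15), from 51.03 and 45.2 CPM in addback to 191 and 178 CPM in deficient libraries. STC2, a secreted stanniocalcin, had -0.90 ± 0.15 and 2.20 ± 0.20; in 786-O the value was -0.55 without WT replicate 3 and -0.56 without KO replicate 3. NNMT, which methylates nicotinamide and is high in renal carcinoma, had -0.80 ± 0.12 and 0.87 ± 0.15. UCP2, an uncoupling protein of mitochondria, had -1.17 ± 0.10 and 1.54 ± 0.14. ATF4, the transcription factor of the integrated stress response, had -0.40 ± 0.08 and 0.99 ± 0.09 (adjusted p of the difference = 1.96e-06, edgeR). Its target TRIB3 was called in A498 only (1.62 ± 0.14, against -0.03 ± 0.11 in 786-O).

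Some of these genes were near silent in 1 group. ATP9A, a flippase of endosomes, had 32.6, 29.5 and 40.4 CPM in WT and 3.83, 4.12 and 4.27 CPM in KO libraries, and 0.690 and 0.768 CPM in addback against 8.28 and 8.44 CPM in deficient libraries. Its changes were -3.05 ± 0.11 and 3.51 ± 0.21, so KO and deficient libraries were closer to each other than the controls were. RAB42, a small GTPase, had -3.56 ± 0.13 and 5.58 ± 0.36, the latter 4.91 without addback replicate 1 and 6.76 without replicate 2. EMC10, a subunit of the complex that inserts membrane proteins, fell in KO (-1.38 ± 0.10), from 101, 112 and 83.95 CPM in WT to 42.1, 40.9 and 31.2 CPM in KO libraries. In A498 it had 1823 counts in deficient and 1 in addback libraries, a ratio of levels of 2215 (95% counting interval 397 to 87549). The 1 count belonged to addback replicate 2, and the ratio was at least 363 when that library was left out and 1127 when the other was. BASP1, a myristoylated membrane protein, was called in A498 only: it had 2210 counts in deficient and 1 in addback libraries, a ratio of 2686 (482 to 106125), against 0.03 ± 0.12 in 786-O. That ratio was at least 440 with addback replicate 2 left out and 1366 with replicate 1 left out. These intervals and floors (3 counts over the group) cover counting error only.

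Cytosolic ribosomal protein genes were the list with the most opposite members. They share TOP motifs that tie their translation to mTOR, and their mRNAs are usually kept in proportion. Of 83 tested 46 fell (55.4%, against 19.9% of all genes) and 4 rose (4.82%, against 19.2%) in KO. In deficient cells 60 rose (72.3%, against 18.2%) and 1 fell (1.20%, against 14.2%). Down in KO and up in deficient cells were 34 (40.96%, against 3.43% of all genes tested). The difference was called for 69 (against 31.4% of all genes), all with a lower value in 786-O (against 17.5%). The medians were -0.24 and 0.48, and both signs held with upper-quartile scaling (-0.20 and 0.41), which left 22 opposite members. The count of 34 was 22 without WT or KO replicate 3 and up to 48 with another library left out, and it was 3 without the batch term and 8 in the fit of all 16 libraries. The 60 raised in A498 were 39 without addback replicate 2, and the 46 lowered in 786-O were 30 without KO replicate 1 and 29 without WT or KO replicate 3.

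RPL7, a protein of the large subunit, had 996, 958 and 1057 CPM in WT and 629, 653 and 662 CPM in KO libraries. It had 1211 and 1137 CPM in addback and 1891 and 1666 CPM in deficient libraries, with no overlap in either line. It had -0.63 ± 0.07 (adjusted p = 1.54e-05, edgeR) and 0.60 ± 0.09 (adjusted p = 1.98e-04). RPL22L1, the paralogue of RPL22, was 1 of 4 members that rose in both lines (0.89 ± 0.13 and 0.95 ± 0.14). RPS27L, a p53-induced paralogue of RPS27, was the member lower in both (-0.25 ± 0.09 and -0.30 ± 0.11); it left that class when any one of 9 of the 10 libraries was left out. Ribosomal protein genes have many processed pseudogenes, so reads placed uniquely are uncertain for them.

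**Figure D4:**
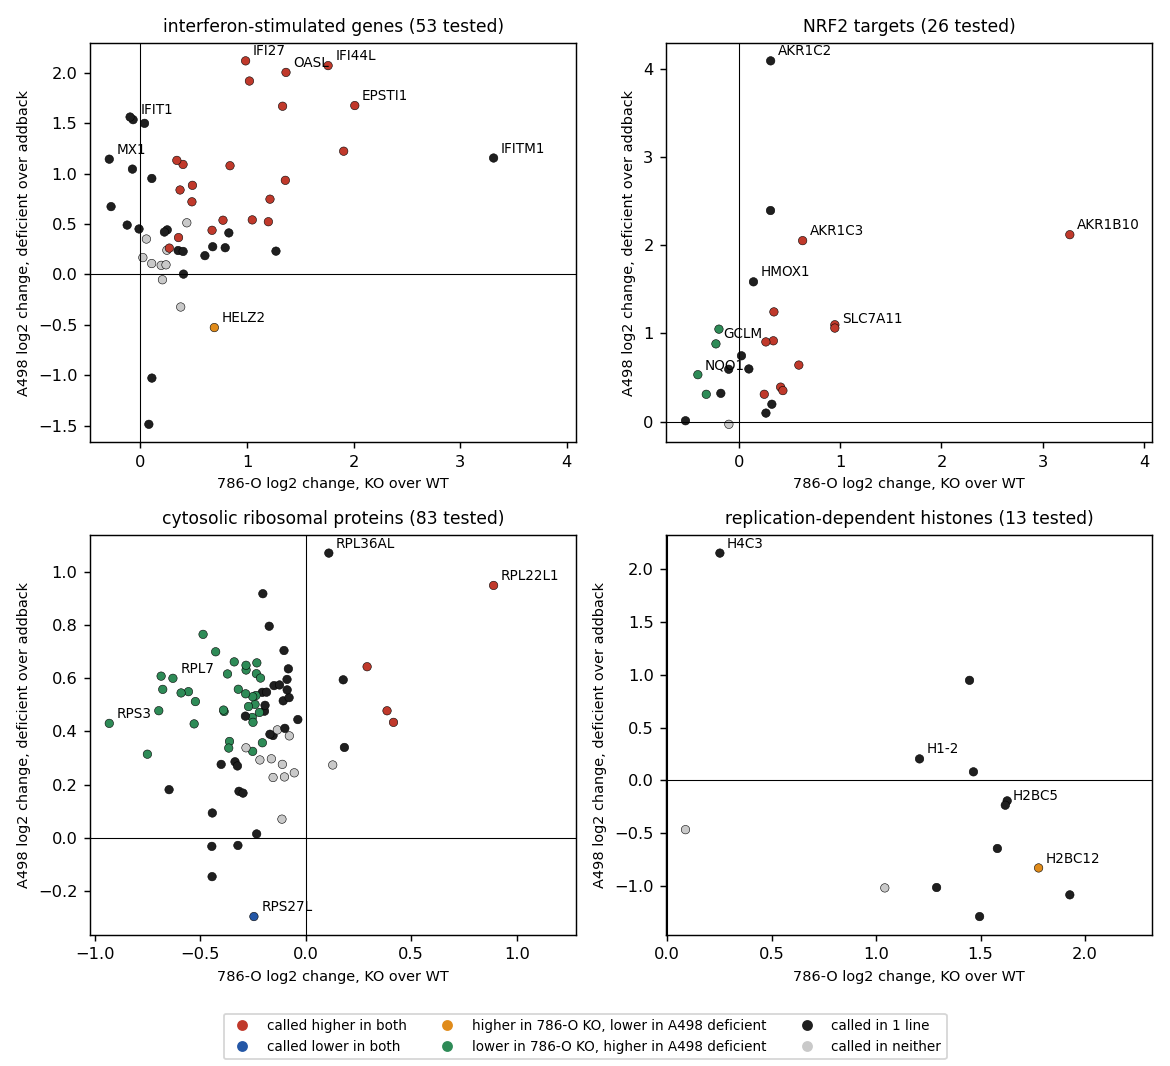
Log2 change in 786-O (x axis) and A498 (y axis) of each member tested in 4 gene lists, coloured by class. The 21 red interferon-stimulated genes lie in the upper right, 34 green ribosomal protein genes in the upper left, and the histone genes right of 0 with A498 values on both sides of it; axes differ between panels.

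Of 30 genes of cholesterol and fatty acid synthesis 21 rose (70.0%, against 18.2% of all genes) and 0 fell in deficient cells. In KO 7 rose (23.3%, against 19.2%) and 8 fell (26.7%, against 19.9%), and the medians were 0.56 in A498 and -0.04 in 786-O. The 7 were 3 without KO or WT replicate 3 and 4 without KO or WT replicate 2 or either addback library. The 8 were 5 without KO or WT replicate 1 and up to 12 with another library left out. The difference was called for 21 members (against 31.4% of all genes), 20 of them lower in 786-O than in A498 (against 17.5%). The A498 count was 16 to 23 with 1 library left out and 7 without the batch term. FADS2, the delta-6 desaturase of polyunsaturated fatty acids, is on no list and had 555, 529.6 and 528 CPM in WT, 555, 512 and 643 CPM in KO, 10.7 and 11.1 CPM in addback and 88.9 and 81.9 CPM in deficient libraries. Its 786-O groups overlapped (0.08 ± 0.08) and its A498 groups were far apart (2.97 ± 0.12; difference -2.89 ± 0.14, adjusted p = 8.75e-09, edgeR). SCD, the stearoyl-CoA desaturase, had 2.15 ± 0.11 in A498 and 0.04 ± 0.08 in 786-O, a difference not called without the batch term.

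Of 23 glycolysis genes 11 fell (47.8%, against 19.9% of all genes) and 2 rose (8.70%, against 19.2%) in KO. In deficient cells 12 rose (52.2%, against 18.2%) and 2 fell (8.70%, against 14.2%). The 12 were 5 without addback replicate 1, the 2 that rose in KO were 1 to 4 with 1 library left out, and the 2 that fell in deficient cells 1 to 3. GAPDH was among 5 members down in KO and up in deficient cells (21.7%, against 3.43% of all genes). It had -0.36 ± 0.08 and 0.71 ± 0.10, and lost all its calls without the batch term. The 5 were 2 without addback replicate 1. With the genes of chromosomes 1, 10 and 20 left out the 786-O median went from -0.23 to -0.03, and 2 of 17 members were opposite. HK2, the inducible hexokinase, rose in A498 only (1.98 ± 0.13, against 0.11 ± 0.09; the difference was not called in the fit of all 16 libraries). Targets of hypoxia-inducible factors, which are stable in cells that lack VHL, numbered 27. In KO 3 were up (11.1%, against 19.2%; 5 without KO or WT replicate 3) and 9 down (33.3%, against 19.9%). In deficient cells 15 were up (55.6%, against 18.2%) and 2 down (7.41%, against 14.2%). The difference was called with a negative value for 17 (against 17.5% of all genes) and a positive one for 2 (against 13.9%). Their 786-O median went from -0.15 to -0.03 with those chromosomes left out. MYC, a transcription factor of growth genes, rose in A498 only (1.34 ± 0.10, against -0.14 ± 0.08 in 786-O; adjusted p of the difference = 1.76e-06, edgeR). Of 13 mRNAs of the mitochondrial genome 10 rose in deficient cells (76.9%, against 18.2%) and 0 in KO. The 10 were 3 without addback replicate 1 and 5 without addback replicate 2 or deficient replicate 2.

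Of 29 NF-kB targets and chemokines 11 fell (37.9%, against 19.9% of all genes) and 3 rose (10.3%, against 19.2%) in KO. In deficient cells 13 rose (44.8%, against 18.2%; 8 without addback replicate 1) and 3 fell (10.3%, against 14.2%). The 786-O count of 11 was 7 without WT or KO replicate 2. CXCL1, a chemokine for neutrophils, had -2.07 ± 0.28 and 2.29 ± 0.48, the latter 3.00 without addback replicate 1 and 1.75 without addback replicate 2. CXCL8, of the same family, had 3.51 ± 0.47 in A498 and -0.74 ± 0.29 in 786-O, a difference of -4.25 ± 0.56 (adjusted p = 7.56e-05, edgeR) that was not called in the fit of all 16 libraries.

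DSP, MCAM, CCND1 and SATB1 were called in 786-O and not in A498, and for all 4 the difference was called. DSP (chromosome 6, 7541617 to 7586714), desmoplakin of desmosomes, had 2.16, 2.53 and 0.255 CPM in WT and 33.3, 31.6 and 24.7 CPM in KO libraries, and 44.8 and 51.9 CPM in addback and 38.5 and 54.1 CPM in deficient libraries, which overlapped. The KO libraries had moved toward the level that A498 held in both states. The changes were 4.10 ± 0.25 and -0.06 ± 0.22, with a difference of 4.17 ± 0.34 (adjusted p = 1.06e-06, edgeR). MCAM, an adhesion molecule also used as a pericyte marker, had 110.0, 112 and 89.05 CPM in WT and 5.17, 5.71 and 5.67 CPM in KO libraries, a change of -4.24 ± 0.11 against -0.35 ± 0.18 in A498 (adjusted p of the difference = 3.13e-08, edgeR). The 14 other fibroblast and pericyte markers summed to 28.8 to 38.6 CPM in WT, 28.8 to 31.02 CPM in KO, 164 to 173 CPM in addback and 198 to 221 CPM in deficient libraries, so the WT and KO sums overlapped. The part of such cells in these results was not tested.

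CCND1, cyclin D1 of the G1 phase, had 593, 612 and 706 CPM in WT and 299, 279.6 and 266 CPM in KO libraries, a change of -1.17 ± 0.09 against 0.02 ± 0.11 in A498 (adjusted p of the difference = 3.18e-05, edgeR). SATB1, a chromatin organiser, rose by 2.11 ± 0.22 in KO, against -0.48 ± 0.26 in A498, where the call was missed (adjusted p of the difference = 8.05e-05, edgeR).

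Among genes of cell death and nucleic acid sensing, BAK1, a pore-forming effector of mitochondrial apoptosis, had 57.6, 60.8 and 28.5 CPM in WT and 96.3, 99.2 and 60.9 CPM in KO libraries. It had 43.8 and 46.6 CPM in addback and 45.4 and 44.2 CPM in deficient libraries, which overlapped. It rose by 0.84 ± 0.09 in 786-O (adjusted p = 6.94e-06, edgeR), against -0.01 ± 0.11 in A498, and the difference of 0.85 ± 0.14 was called (adjusted p = 4.97e-04). Without the batch term neither its 786-O change nor its difference was called. BCL2L1, which encodes BCL-XL, had -0.16 ± 0.08 and -0.21 ± 0.10, neither called, with a difference of 0.05 ± 0.13 (adjusted p = 0.799, edgeR). CGAS, the sensor of cytosolic DNA, had 0.26 ± 0.13 and 0.25 ± 0.15, neither called. STING1, its adaptor, had 0.03 ± 0.09 in 786-O and 0.35 ± 0.12 in A498. The A498 value passed narrowly (adjusted p = 0.0413, edgeR) and was not called with DESeq2, with upper-quartile scaling, with the replicate number as a block, or when any one of KO replicate 1, WT replicates 1 and 2, either addback library or deficient replicate 1 was left out.

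Whole chromosomes moved in a way that touched the classes. In 786-O the median log2 change of the genes tested was -0.27 on chromosome 1 and -0.33 on chromosome 10, against 0.01 over all genes. In A498 it was -0.24 on chromosome 20, -0.19 on chromosome 19 and -0.18 on chromosome 7. Chromosome 1 held 10.0% of the genes tested but 129 of the 594 genes down in KO and up in deficient cells, and 125 of the 735 down in both. Of the 412 genes up in KO and down in deficient cells, chromosome 19 held 69 (16.7%, against 6.91% of genes tested). Chromosome 7 held 52 of them (12.6%, against 5.26%). IFIT1 and IFIT3 lie on chromosome 10, and ATP9A and HELZ2 on chromosome 20. With the genes of chromosomes 1, 10 and 20 left out, 14436 remained, of which 776 were up and 520 down in both lines, 360 up in KO and down in deficient cells, and 391 the other way round. Genes of chromosomes 7 and 19 were kept in these counts. Of the 76 ribosomal protein genes elsewhere 29 were down in KO and up in deficient cells, and of 19 NRF2 targets 9 were up in both lines and 2 opposite. The part of DNA copy number in these values was not tested.

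**Figure D5:**
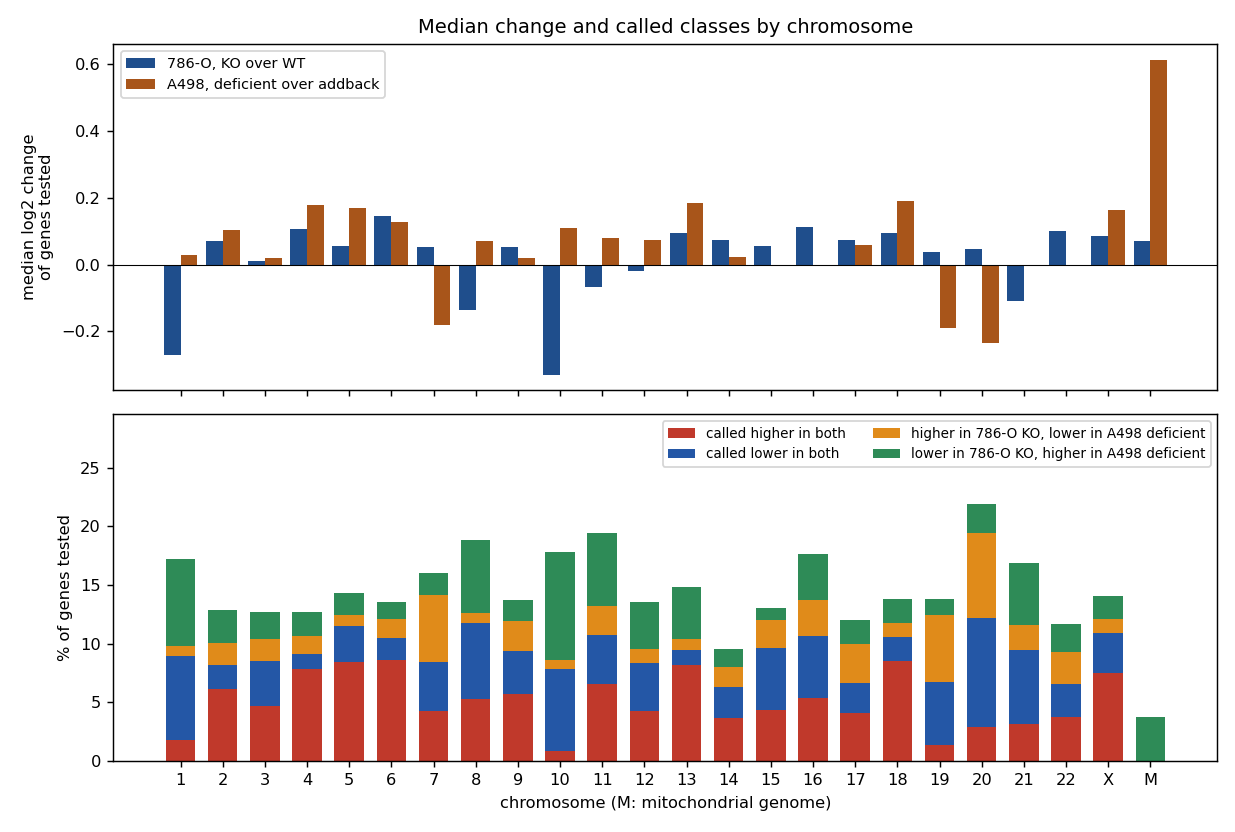
Median log2 change of the genes tested on each chromosome in 786-O and A498 (upper panel) and the share of its genes in each of the 4 classes called in both lines (lower panel, percent). Chromosomes 1 and 10 sit at -0.27 and -0.33 in 786-O, and M holds the 27 genes of the mitochondrial genome that were tested.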

How the data were processed

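RNA was sequenced after poly(A) selection as paired reads. The deposited values are counts of fragments per gene, which the authors made with featureCounts 1.5.0-p3 on exons summed by gene name (reverse-stranded setting, GENCODE 41, GRCh38), per the file headers, from STAR alignments (the submitters' processing notes). MultiQC 1.7 and DESeq2 are also named there. Each table held 60606 gene names, and 19391 were taken as protein-coding by name (GENCODE 29 or RefSeq). Groups, batches and replicate numbers came from the labels.

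The 10 libraries were fitted together with edgeR 4.0.16 (R 4.3.3): TMM scaling, filterByExpr with a minimum count of 10 (17314 genes), 1 coefficient per group with batch 1 against 2 as a term in 786-O, and quasi-likelihood F tests with Benjamini-Hochberg adjustment at 0.05. Standard errors were the log2 change over the square root of F. Levels are CPM on effective library sizes. Counting intervals (95%, exact binomial) and floors of 3 counts cover counting error only, since no molecular identifiers were used. Counts were also simulated with 1 mean per gene over the 10 libraries, thus with no batch or line effect. Only genes averaging at least 50 counts were changed, 50 per pattern by 2-fold, among 16460 unchanged ones. Of each 50, 42 (84%) were recovered as alike, 45 (90%) as opposite, 36 (72%) as 786-O only and 42 (84%) as A498 only. These settings differ from the data, so the shares do not measure recovery there.

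Members, the 35 gene lists (1141 entries), tests and rules were chosen with earlier results of these data known. Named genes were SETD2, BCL2L1, BAK1, CGAS and STING1, then protein-coding genes whose higher group averaged 5 CPM or more in each line, with no overlap between groups (in 786-O within each batch). Of these the 12 up and 12 down alike and 10 of each opposite kind were taken by the smaller absolute change, 5 up and 5 down per line among genes called in that line with a called difference, and up to 4 members per list by the p of the difference. The text prints a choice of them, made after seeing the values for sturdy calls, and 14 genes outside the rule, also chosen after their values were seen.

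Residuals of same-numbered WT and KO libraries correlated at 0.733 (replicate 3), 0.568 and 0.510, and unlike numbers of batch 2 at 0.508 and 0.561; in A498 the value was 0.0876. The numbers thus mark the batch in 786-O, and the fit with replicate number as a block was kept as an alternative. Alternatives were DESeq2 1.42.0, limma 3.58.1 voom with quality weights, upper-quartile scaling, other count filters, no batch term, batch 2 alone, lines fitted apart, all 16 libraries, a fold threshold of 2, and each library left out.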

Additional observations from a re-analysis of the deposited data

Results flagged for a closer look

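The results here had a change with SETD2 state that differed between the lines by the edgeR test of the difference itself (log2 change in 786-O minus log2 change in A498). A positive value means a higher change in 786-O. The line, batch, vehicle and kind of control cannot be told apart in any of them.

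SETD2 differed by -1.24, since its mRNA fell in 786-O KO only. Among genes moved alike, AKR1B10 (1.15) and TIGAR (1.03) had the positive difference of a larger rise or smaller fall in 786-O, as did ZSCAN18 (1.77). MYH10 (-0.89) and ICAM1 (-0.93) fell further in 786-O. CA2 (-0.59), IFI27 (-1.13) and LURAP1L (-1.47) rose further in A498.

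Of the genes up in KO and down in deficient cells, NTN1 had a difference of 6.22, ZNF737 of 4.69 and ZNF43 of 4.58. EPHB6 (4.49), RHOU (4.29), CGN (3.82) and ITGAX (3.75) followed, then H2BC12 (2.61) and HELZ2 (1.22).

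Of the genes down in KO and up in deficient cells, EMC10 differed by -12.23, a fitted value that depends on the prior count because addback libraries held 1 count. RAB42 (-9.14), ATP9A (-6.56) and CXCL1 (-4.36) came next. IGFBP3 (-3.15), STC2 (-3.10), INHBB (-3.07) and UCP2 (-2.71) differed less, and NNMT (-1.67), ATF4 (-1.39), RPL7 (-1.23), GAPDH (-1.07), PAX8 (-1.03) and NQO1 (-0.94) least among those printed.

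Called in 786-O only were DSP (4.17), UNC5A (2.67), SATB1 (2.59), IFITM1 (2.16) and BAK1 (0.85), which rose, and MCAM (-3.89) and CCND1 (-1.19), which fell. Called in A498 only were ZNF320 (6.03) and BST2 (1.13), which fell there, and BASP1 (-11.09, also with 1 count in addback), CXCL8 (-4.25), AKR1C2 (-3.77), FADS2 (-2.89), SCD (-2.11) and HK2 (-1.87), which rose there. TRIB3 (-1.64), IFIT1 (-1.60), MYC (-1.48), IFIT3 (-1.46) and HMOX1 (-1.44) also rose in A498 only.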

How the results depend on the processing

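The counts called are given in the order 786-O, A498, difference, alike and opposite, with 6760, 5607, 5437, 1561 and 1006 as reported. They were 3625, 2361, 2362, 464 and 258 in a fit of all 16 libraries, 2358, 1451, 1419, 272 and 159 without the batch term, and 698, 492, 769, 36 and 26 with a fold threshold of 2; the cause of the first 2 falls was not tested. With each library left out in turn they ranged from 5172 to 7774, 3338 to 6406, 3805 to 5849, 948 to 1683 and 569 to 1162, with the lowest counts of A498, difference, alike and opposite without addback replicate 2. The A498 call then rests on a lone library assumed to vary like the other groups. The replicate number as a block gave 6521, 5326, 5143, 1457 and 936 (1398 of the alike and 897 of the opposite genes were the same genes). It lost 9 of the 489 gene results followed, among those printed only the A498 change of STING1. DESeq2, limma voom, upper-quartile scaling, other count filters, batch 2 alone, the lines fitted apart and the added omission of chromosomes 1, 10 and 20 (chosen after seeing the data) kept every count they give within 1.5 times of that reported. Lines fitted apart give no test of the difference. Of 10087 values of these genes under alternatives, 9230 kept their side of the threshold, 854 were no longer called, 3 became called and 0 reversed. A reversal was a change of sign with a call in either fit. Values called in neither fit may have changed sign and stand among the 9230. Depth limits genes of few counts in 1 line, such as AKR1C2 in 786-O and IFITM1 in A498.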
